A study of Homo sapiens with 11 samples.

Results

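The genes described here are the protein-coding genes of human chromosome 19 that are named ZNF and a number, as they were measured in HCT116 cells. Membership was set by annotation and symbol alone, with no measured value, but this list was chosen with earlier results of these data known. The genes number 246 of the 61464 rows of the count table. Of these, 159 had enough counts to be tested and 87 did not.

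Most of these genes encode proteins with arrays of C2H2 zinc fingers, each finger a short loop that holds a zinc ion and touches a few bases of DNA. Many also carry a KRAB domain at the start of the protein, which binds the corepressor TRIM28 and through it brings histone H3 lysine 9 methylation and DNA methylation to the bound site. The family lies in clusters on chromosome 19 that grew by duplication, and many members are known to bind transposable elements. Finger patterns were read from the annotated reading frame of each gene's transcript with the longest coding part. A member had a median of 12 finger patterns (range 0 to 36). Letters of a KRAB A box were sought in all coding transcripts, in shifted frames as well as the annotated one. They were found in 211 of the 246. This search can miss divergent boxes and can match letters that are not a KRAB box.

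HCT116 is a long-established line of epithelial cells from a human colorectal carcinoma, and all libraries were labelled with a ras mutation and as batch 1. Polyadenylated RNA was sequenced after 48 h with the solvent DMSO (3 libraries) or with the Ganoderma triterpenoid extracts GTEA1 (4 libraries) or GTEA7 (4 libraries), Ganoderma being a genus of bracket fungi. The title of the series names stemness and migration of colon cancer cells as its question. The labels give no doses and name the extracts only by codes, and nothing says that the libraries of a group came from separate cultures, so p-values measure only the spread between these libraries.

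The DMSO libraries held 13866350 to 17431515 counts each, the GTEA1 libraries 13742326 to 16433111 and the GTEA7 libraries 14955685 to 19304211. The 8 epithelial markers checked summed to 2230 to 2380 CPM in DMSO, 2720 to 2850 in GTEA1 and 2230 to 2330 in GTEA7. CPM is a gene's counts relative to its library's scaled total. Single markers went both ways. Mean CPM was higher in GTEA1 than in DMSO for KRT19 (1030 and 452), EPCAM (359 and 234) and CDH1 (164 and 146). It was lower for KRT8 (972 and 1160), KRT18 (265 and 320) and CDX2 (7.83 and 11.6). VIL1 was under 1 CPM in each group. KRT20 was at 2.12 CPM in DMSO, 0.632 in GTEA1 and 2.9 in GTEA7. The 5 leukocyte markers summed to 1.03 to 1.38 CPM in DMSO, 1.83 to 2.45 in GTEA1 and 0.87 to 1.67 in GTEA7, with CD3E at 0, and the 3 endothelial markers to at most 2.63. The 6 fibroblast markers summed to 53.7 to 55.1, 38.3 to 46 and 36.7 to 45.7 CPM in the same order, nearly all of it COL1A1, with LUM and DCN near 0. The part of these marker differences in the results below was not tested. In bulk libraries, fewer cells of a type and less RNA per cell cannot be told apart.

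Most of the tested members were lower with GTEA1. Of 159, 99 fell, 27 rose and 33 did not pass (edgeR quasi-likelihood test over all genes, Benjamini-Hochberg adjusted p under 0.05). Over all 17963 tested genes 71.8% passed, 36.2% lower and 35.6% higher, so that the number of members passing was near the background and their split between directions was not even. The median log2 fold change of the members was -0.48, against -0.01 over all tested genes. Falls of at least 2-fold were found in 36 members and rises of that size in 3, where the background was 12.4% lower and 8.56% higher. The GTEA1 libraries lay wholly below the DMSO libraries in 95 members and wholly above in 25 (background 34.8% and 33.9%). These counts describe the list and are no test of it.

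**Figure D1:**
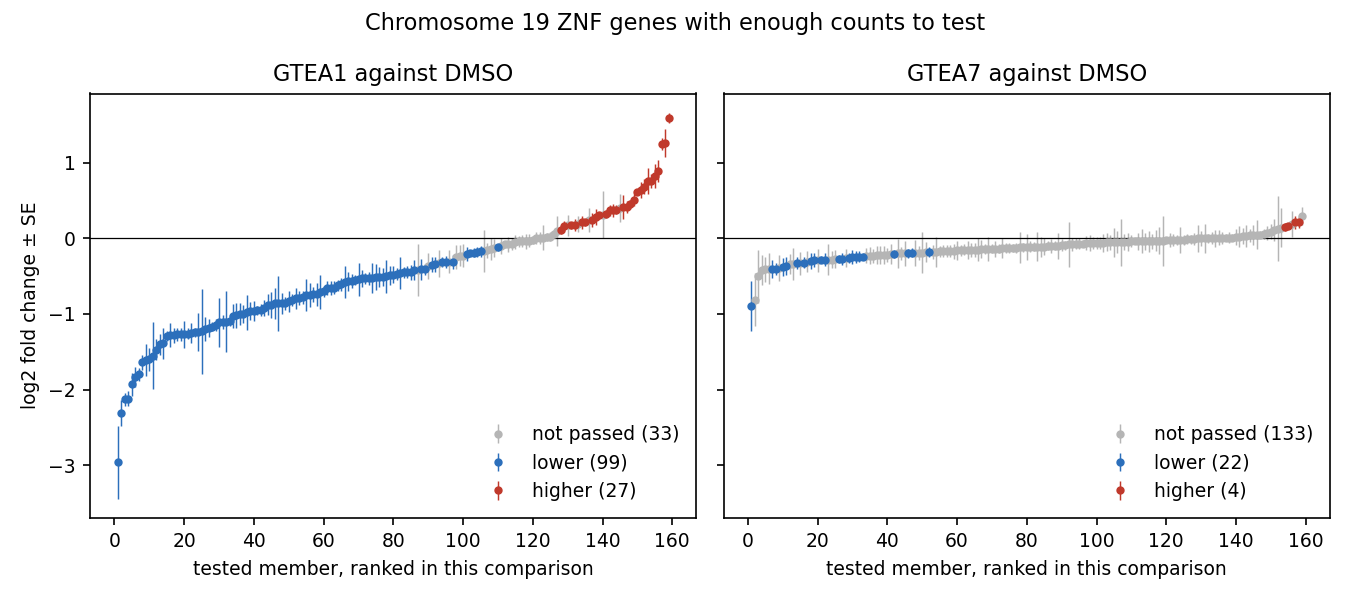
Log2 fold change with its standard error for the 159 tested members, ranked within each comparison and coloured by call (left, GTEA1 against DMSO; right, GTEA7 against DMSO). In GTEA1 99 members are called lower and 27 higher, and in GTEA7 22 and 4.

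Summed over all 246 genes, the members held 2708 to 2737 CPM in the DMSO libraries, 2389 to 2511 in GTEA1 and 2501 to 2609 in GTEA7. Every treated library lay below every DMSO library, and the lowest GTEA7 library lay below the highest GTEA1 library. Without ZNF146 and ZNF121, which have the highest CPM, the sums were 2298 to 2312 in DMSO, 1920 to 2028 in GTEA1 and 2078 to 2176 in GTEA7, and the 3 groups did not overlap. This was not particular to chromosome 19. ZNF-numbered coding genes on other chromosomes summed to 6623 to 6746 CPM in DMSO, 5912 to 6146 in GTEA1 and 6447 to 6562 in GTEA7. There too every treated library lay below every DMSO library. Per kilobase of transcript, the members with the highest mean level over all libraries were ZNF146 at 66.1 CPM, ZNF562 at 32.6 and ZNF121 at 27.1.

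With GTEA7 the same genes moved little. Of the 159, 22 fell, 4 rose and 133 did not pass, where 22.5% of all tested genes passed, 10.4% lower and 12% higher. The median log2 fold change was -0.11 against -0.01 over all genes, and none of the called members changed by 2-fold, as was so for 0.284% lower and 0.295% higher in the background. The small changes were mostly downward: 83% of the tested members had a negative value, against 51.8% of all tested genes. The GTEA7 libraries lay wholly below the DMSO libraries in 41 members and wholly above in 5 (25.8% and 3.14%, background 14.9% and 15.6%). Without DMSO replicate 3, or without GTEA7 replicate 2, only 1 member was called higher, and without DMSO replicate 1 or 2 there were 2. With library size as the only scaling, 46 members were lower and 1 higher, while the median of all genes moved to -0.06. The Wald test of DESeq2 called 14 lower and 2 higher. The GTEA1 and GTEA7 comparisons share the DMSO libraries.

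Among members with a mean of at least 1 CPM, the largest falls with GTEA1 were in ZNF530, ZNF480 and ZNF551, each with KRAB letters and 13, 10 and 14 finger patterns. Values are given in the order of the replicate numbers. ZNF530 had 6.81, 5.4 and 6.28 CPM in DMSO, 1.23, 0.955, 1.24 and 1.48 in GTEA1 and 5.53, 5.17, 5.48 and 4.86 in GTEA7. All 4 GTEA1 libraries were far below the rest, and GTEA7 overlapped DMSO. Its log2 fold change was -2.31 ± 0.17 (SE) with GTEA1 (adjusted p = 2.4e-17, edgeR) and -0.22 ± 0.12 with GTEA7 (adjusted p = 0.2).

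ZNF480 had 24.7, 25.5 and 24.8 CPM in DMSO, 6.14, 5.44, 6.15 and 5.2 in GTEA1 and 19.9, 23.3, 24.8 and 21.1 in GTEA7. The GTEA1 libraries were again apart from both other groups, with a log2 fold change of -2.13 ± 0.09 (adjusted p = 8.8e-27, edgeR). ZNF551 had 18.8, 18.1 and 18.1 CPM in DMSO, 4.37, 4.63, 3.67 and 4.24 in GTEA1 and 18.6, 17.5, 18.7 and 18.3 in GTEA7. It fell by 2.12 on the log2 scale with GTEA1 (SE 0.1), while the GTEA7 value was -0.01 ± 0.07 and overlapped DMSO.

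ZNF112, ZNF738, ZNF525, ZNF708 and ZNF724 followed, with log2 fold changes from -1.93 to -1.61 in GTEA1. ZNF525 had 20.6, 21.3 and 19.3 CPM in DMSO, 5.36 to 6.21 in GTEA1 and 15.2, 15.4, 18.3 and 16.8 in GTEA7. Its 3 groups did not overlap: it fell by 1.8 with GTEA1 (SE 0.09) and by 0.32 with GTEA7 (SE 0.07, adjusted p = 0.0011, edgeR). ZNF112 went from 7.59 to 8.64 CPM in DMSO to 1.46 to 2.7 in GTEA1, and ZNF738 from 9.07 to 11.1 to 2.45 to 3.08. Both also passed lower with GTEA7, at -0.37 and -0.3, with libraries that overlapped DMSO. The GTEA7 call of ZNF112 was lost without DMSO replicate 1 or 2 or GTEA7 replicate 1 or 2, and that of ZNF738 without DMSO replicate 1 or 3 or GTEA7 replicate 2 or 4. ZNF738 was the only tested member with no finger pattern in the frame read. ZNF708 went from 14.7 to 16 CPM in DMSO to 4.26 to 5.52 in GTEA1 and stood at 13.7 to 15.6 in GTEA7. ZNF724 went from 2.91 to 3.45 CPM to 0.771 to 1.3, but 52.1% of its 100-letter stretches occur in another gene, so its reads may be split. ZNF780B, named after its values were seen since its mean of 0.512 CPM is under the minimum of the naming rule, had a larger change (-2.96 ± 0.48), from 0.828 to 1.13 CPM in DMSO to 0 to 0.23 in GTEA1. It passed lower with GTEA7 as well (-0.89 ± 0.33, adjusted p = 0.045, edgeR), a call lost without any 1 of the DMSO libraries or without GTEA7 replicate 2 or 3.

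The members that rose with GTEA1 were led by ZNF333, ZNF460 and ZNF805, all with KRAB letters. ZNF333 had 17.5, 15 and 15.3 CPM in DMSO, 43.9, 47.9, 50.6 and 49 in GTEA1 and 15.4, 13.8, 12.7 and 15.1 in GTEA7. The GTEA1 libraries stood well above all others, with a log2 fold change of 1.59 ± 0.07 (adjusted p = 9.2e-27, edgeR), and GTEA7 overlapped DMSO. ZNF805 had 19.4, 19.3 and 21.1 CPM in DMSO, 39.7, 49.9, 52.8 and 46.8 in GTEA1 and 17.3, 16.6, 14.9 and 19 in GTEA7. It rose by 1.25 ± 0.08 with GTEA1. The GTEA7 libraries lay below DMSO without passing (-0.23 ± 0.09, adjusted p = 0.068, edgeR), though it passed in 5 of the alternatives. ZNF460 had 10.7, 9.39 and 9.66 CPM in DMSO and 15.6, 26.3, 24.5 and 27.8 in GTEA1, replicate 1 being low among the 4 but above DMSO. Its log2 fold change was 1.26 ± 0.18 (adjusted p = 0.00011, edgeR).

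Smaller rises were found in ZNF565 (0.89), ZNF222 (0.82), ZNF524 (0.76), ZNF554 (0.76) and ZNF77 (0.68). ZNF565 went from 2.97 to 3.83 CPM in DMSO to 5.91 to 7.2 in GTEA1, and ZNF554 from 9.57 to 10.8 to 16.6 to 18.3. In all 5 the GTEA1 libraries were above every DMSO library, and GTEA7 overlapped DMSO. Of the 100-letter stretches of ZNF222, 13.4% occur in another gene.

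**Figure D2:**
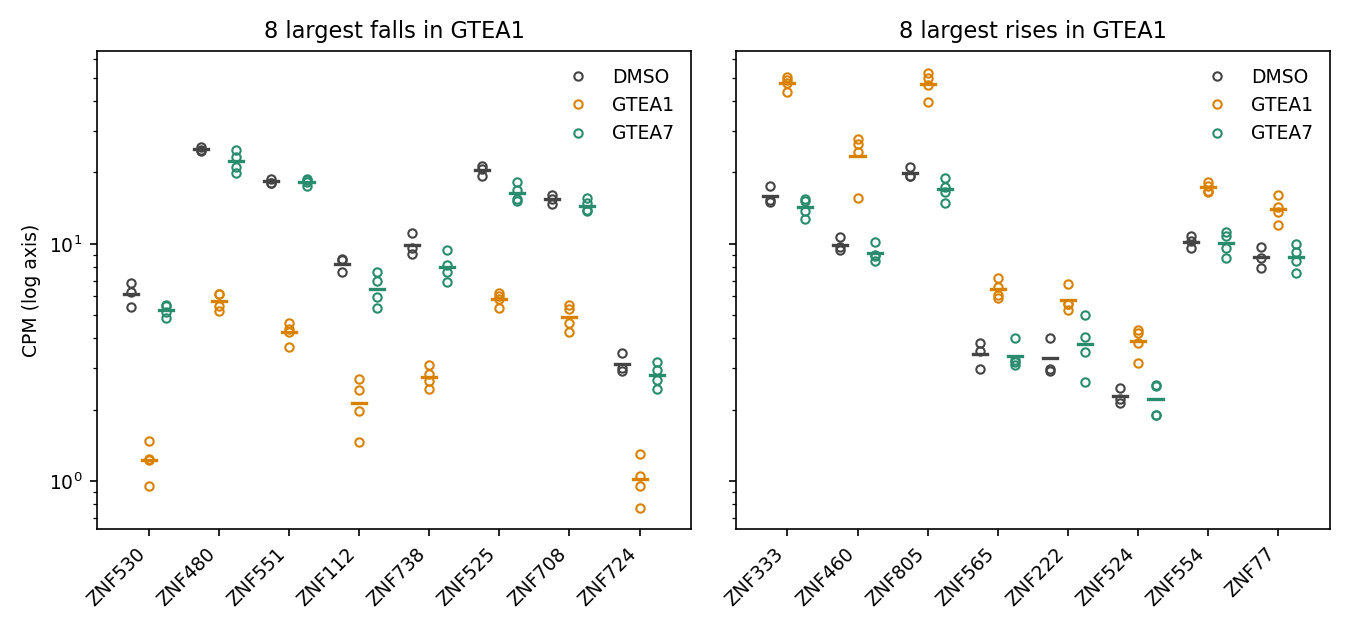
CPM in every library (circles, log axis) with the group mean (bar) for the 8 largest falls (left) and rises (right) with GTEA1 among members with a mean of at least 1 CPM. All GTEA1 libraries lie on 1 side of the DMSO libraries, while GTEA7 overlaps DMSO in all but ZNF525 and ZNF805; ZNF460 has 1 GTEA1 library at 15.6 CPM below the other 3.

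The promoters of the 3 largest falls and rises that have an entry are shown so that their letters can be compared; a match below is only a run of letters. Each is the 250 bases before the gene start, from RefSeq on GRCh38.p14, 5' to 3' along the gene. They lie at chr19:57599635-57599884 on the plus strand, chr19:57681727-57681976 on the plus strand, chr19:44356705-44356954 on the minus strand, chr19:14689798-14690047 on the plus strand, chr19:57279732-57279981 on the plus strand and chr19:57240382-57240631 on the plus strand, in the order of printing. Capitals mark matches to the motifs named after them.
ZNF530: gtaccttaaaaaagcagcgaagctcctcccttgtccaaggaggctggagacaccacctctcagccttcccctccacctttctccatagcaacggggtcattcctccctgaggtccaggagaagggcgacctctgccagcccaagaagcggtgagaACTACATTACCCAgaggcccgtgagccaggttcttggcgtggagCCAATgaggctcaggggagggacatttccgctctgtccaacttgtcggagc
ZNF551: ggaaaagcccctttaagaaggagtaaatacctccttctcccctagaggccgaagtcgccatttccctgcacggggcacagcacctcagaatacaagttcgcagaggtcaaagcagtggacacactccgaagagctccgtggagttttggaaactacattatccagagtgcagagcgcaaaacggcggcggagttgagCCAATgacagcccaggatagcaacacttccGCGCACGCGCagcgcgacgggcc
ZNF112: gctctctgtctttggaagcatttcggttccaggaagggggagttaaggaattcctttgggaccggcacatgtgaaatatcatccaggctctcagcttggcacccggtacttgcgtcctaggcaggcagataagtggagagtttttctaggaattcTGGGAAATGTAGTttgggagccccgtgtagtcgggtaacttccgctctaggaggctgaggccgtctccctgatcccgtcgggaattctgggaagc
ZNF333: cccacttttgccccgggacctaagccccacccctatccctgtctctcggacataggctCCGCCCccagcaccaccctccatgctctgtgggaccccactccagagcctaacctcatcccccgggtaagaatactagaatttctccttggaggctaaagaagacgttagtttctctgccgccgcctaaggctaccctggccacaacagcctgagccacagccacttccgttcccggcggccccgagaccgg
ZNF460: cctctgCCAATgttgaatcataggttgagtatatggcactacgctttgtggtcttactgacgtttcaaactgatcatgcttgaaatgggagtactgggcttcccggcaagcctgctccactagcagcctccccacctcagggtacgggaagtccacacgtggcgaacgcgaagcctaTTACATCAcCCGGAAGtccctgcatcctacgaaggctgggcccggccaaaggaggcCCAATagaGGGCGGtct
ZNF805: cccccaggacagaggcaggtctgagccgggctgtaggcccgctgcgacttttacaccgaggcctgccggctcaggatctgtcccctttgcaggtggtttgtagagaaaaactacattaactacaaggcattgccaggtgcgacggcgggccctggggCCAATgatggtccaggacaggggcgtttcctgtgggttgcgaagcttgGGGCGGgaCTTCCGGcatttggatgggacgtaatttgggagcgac
The capitals in ZNF530 are a motif here called the ACTACA element (ACTACA, any 3 bases, then CCCA) and a CCAAT box. In ZNF551 they are the palindromic site of NRF1 and a CCAAT box, in ZNF112 the ACTACA element on the other strand, and in ZNF333 the GC box GGGCGG on the other strand. In ZNF460 they are the ATF4 and CHOP composite element TGATGNAA on the other strand, the ETS core CCGGAAG once, with 1 GC box and 2 CCAAT boxes. In ZNF805 they are an ETS core on the other strand, a CCAAT box and a GC box.

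Of the 246 members, 215 had a promoter in this table. Both strands were searched, and the same windows of all 27305 promoters gave the background. The ACTACA element, chosen after the members' promoters had been read, was present in 20.5% of the members and 1.64% of all promoters. It was in 24 of 87 members lower with GTEA1, 3 of 24 higher, 3 of 30 that did not pass and 14 of 74 not tested. The ETS core was in 32.1% of the members and 8.82% of all promoters, the CCAAT box in 51.2% and 33%, and the GC box in 65.1% and 42.3%. The longer form TCCAATNA, which overlaps the CCAAT box and was also chosen after reading, was in 25.1% against 3.42%. The NRF1 site was in 10.2% against 7.58%, and 2 of 87 lower and 4 of 24 higher members held it. The ATF4 and CHOP element was in 1.86% against 3.19%, the antioxidant response core TGACNNNGC in 11.6% against 11%, and TGACGTNA of the cAMP response element in 2.33% against 2.82%. The members descend from common ancestors, so their promoters are not independent.

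By domain, the counts differed between members with and without KRAB letters. Of the 132 tested with them, 92 fell and 20 rose with GTEA1, with a median log2 fold change of -0.54. Of the 27 without, 7 fell and 7 rose, with a median of -0.08. The shares lower and higher were 69.7% and 15.2% with KRAB letters, and 25.9% and 25.9% without. Over all tested genes they were 36.2% and 35.6%. With libraries scaled by size alone, members without KRAB letters became 16 lower and 5 higher. The median of all genes was then -0.167, with 8179 lower and 4828 higher. The difference between members with and without KRAB letters was not tested. With GTEA7, 20 fell and 3 rose with KRAB letters (median -0.13), and 2 fell and 1 rose without (median -0.05). Those shares were 15.2% and 2.27%, and 7.41% and 3.7%, where 10.4% of all tested genes fell and 12% rose. With libraries scaled by size alone, these GTEA7 counts became 42 lower and 0 higher with KRAB letters, and 4 lower and 1 higher without. Over all tested genes 2954 were then lower and 1255 higher. By number of finger patterns, with GTEA1 3 of 12 fell and 2 rose at 0 to 5, 32 of 50 fell and 8 rose at 6 to 10, 42 of 63 fell and 12 rose at 11 to 15, and 22 of 34 fell and 5 rose above 15.

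**Figure D3:**
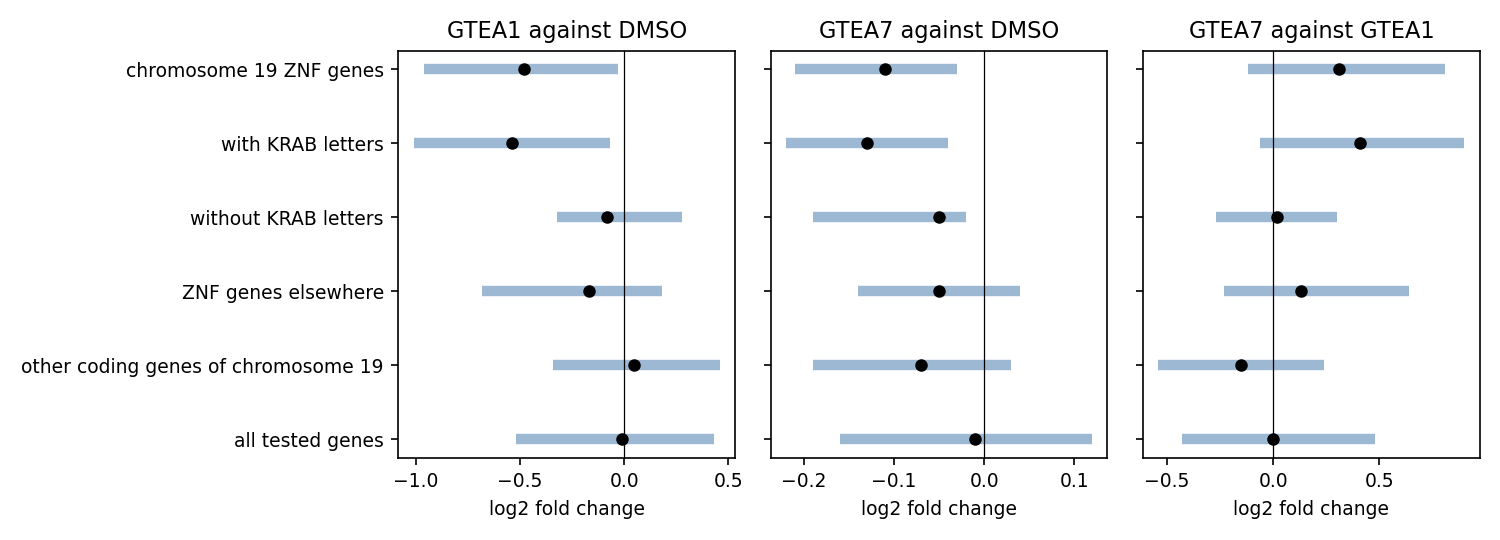
Median (point) and quartiles (bar) of the log2 fold change of tested genes in each comparison, each panel with its own scale. The chromosome 19 ZNF genes with KRAB letters have a median of -0.54 in GTEA1 against DMSO, those without -0.08, and all tested genes -0.01.

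Members were also read against their neighbours. The other 805 tested coding genes of chromosome 19 had a median log2 fold change of 0.05 with GTEA1, with 320 higher and 248 lower. With GTEA7 their median was -0.07, with 46 higher and 159 lower, against the members' -0.11. Over all tested genes 35.6% were higher and 36.2% lower with GTEA1, and 12% and 10.4% with GTEA7. By order on the chromosome the members formed 18 clusters, a new one starting where more than 10 other coding genes lay between. The largest, from ZNF787 to ZNF446 at the end of the long arm, held 52 members; of 39 tested, 25 fell and 7 rose with GTEA1 (median -0.66). It holds ZNF530 and ZNF551 as well as ZNF460 and ZNF805, which are neighbours of each other. In the cluster from ZNF175 to ZNF331, 21 of 26 fell and 2 rose (median -0.6), in that from ZNF575 to ZNF180, 14 of 18 fell and 1 rose (median -0.51), and in that from ZNF101 to ZNF507, 12 of 16 fell and 1 rose (median -0.89).

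Some clusters had no fall. From ZNF554 to ZNF77, 3 of 4 tested members rose: ZNF554, ZNF77 and ZNF555, while ZNF57 did not pass (-0.42, adjusted p = 0.27, edgeR). With library size as the only scaling, 3 also rose and none fell. ZNF574 and ZNF526, neighbours without KRAB letters, both rose (0.18 and 0.37), but with library size as the only scaling 1 of the 2 passed. From ZNF628 to ZNF581, a cluster without KRAB letters, 3 of 7 rose (ZNF524, ZNF628 and ZNF865) and 4 did not pass. That 42.9% was near the 35.6% of all tested genes that rose, and the cluster's median was 0.01. Over all tested genes 36.2% fell. With library size as the only scaling 2 of the 7 rose and 3 fell. ZNF555, ZNF57, ZNF574, ZNF628 and ZNF865 were named after their values were seen.

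**Figure D4:**
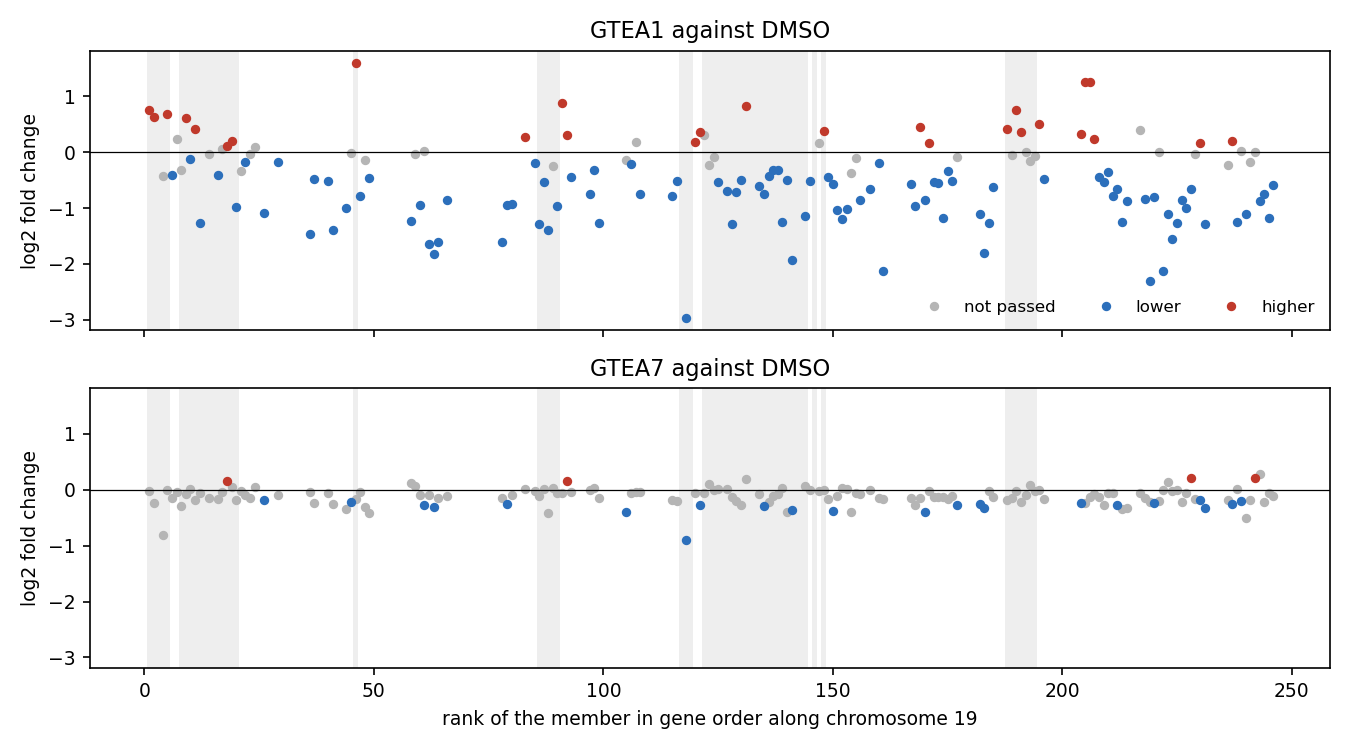
Log2 fold change of each tested member by its rank in gene order along chromosome 19 (grey bands alternate between clusters; colours give the call) for GTEA1 (top) and GTEA7 (bottom) against DMSO. Falls with GTEA1 occur in clusters of both ends of the order, and the first cluster has 3 rises and no fall.

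The GTEA1 counts differed by base composition and level, whose part in the result was not tested. Member medians were -0.65 under 40% GC, -0.51 at 40 to 45%, -0.66 at 45 to 50% and -0.07 over 50%. The levels read were under 1, 1 to 3, 3 to 10, 10 to 30 and over 30 CPM. Their medians were -1.1, -0.53, -0.57, -0.38 and 0.06. The shares lower at these levels were 66.7%, 72.2%, 66.7%, 63.6% and 26.7%. Over all tested genes of the same levels they were 29.5%, 35.1%, 41.6%, 39% and 35.7%. Only 9 members under 1 CPM were tested. Of members with transcripts under 40% GC, 23 of 30 fell and 1 rose, and of those over 50% GC, 8 of 29 fell and 9 rose. Over all coding genes the matching shares were 39% lower and 41.3% higher under 40% GC, and 37.2% and 36.8% over 50%. Of the 15 members with a mean over 30 CPM, 7 rose and 4 fell (median 0.06), where 49.1% of all genes of that level rose and 35.7% fell. At 3 to 10 CPM 34 of 51 fell and 4 rose, where 41.6% of all genes of that level fell and 28.7% rose.

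The 10 members with the highest mean CPM were ZNF146, ZNF121, ZNF83, ZNF562, ZNF264, ZNF507, ZNF558, ZNF791, ZNF317 and ZNF160. ZNF146, a protein made of fingers with no KRAB domain and known as overexpressed in colorectal tumours, had 225, 219 and 220 CPM in DMSO, 281, 271, 267 and 276 in GTEA1 and 239, 252, 257 and 243 in GTEA7. It was higher in every treated library, by 0.31 ± 0.03 with GTEA1 (adjusted p = 5.5e-11) and 0.16 ± 0.03 with GTEA7 (adjusted p = 0.00035, edgeR). ZNF558 had 52 to 52.4 CPM in DMSO and 77.4 to 82.3 in GTEA1, a rise of 0.61 ± 0.04, and 48.5 to 50.8 in GTEA7, which did not pass (adjusted p = 0.26, edgeR).

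ZNF83, ZNF264 and ZNF562 rose with GTEA1 by 0.45, 0.32 and 0.21, the last without passing when library size was the only scaling (0.05, adjusted p = 0.36, edgeR; 7.9e-05 with TMM factors). ZNF507 fell by 0.19 and ZNF317 by 0.12. The ZNF317 call was lost without DMSO replicate 2 (-0.06, adjusted p = 0.33) and in 4 other alternatives. ZNF121 and ZNF791 did not pass with GTEA1, at 0.06 ± 0.04 and -0.02 ± 0.05. With library size as the only scaling both passed lower (-0.1 and -0.18), and without GTEA1 replicate 1 ZNF121 passed higher (0.09). ZNF791 passed lower with GTEA7 (-0.21 ± 0.05, adjusted p = 0.00056, edgeR). ZNF160, which is known to repress TLR4 together with TRIM28, had 56.9, 52.9 and 56.3 CPM in DMSO, 46.8 to 57 in GTEA1 and 43.4 to 47 in GTEA7. It fell with GTEA7 (-0.28 ± 0.05, adjusted p = 4.1e-05, edgeR), whose libraries lay below DMSO. With GTEA1 it overlapped DMSO and did not pass (-0.08 ± 0.05), though it did with library size as the only scaling (-0.24) and without GTEA1 replicate 3 (-0.12). Between the extracts the difference was -0.2 (adjusted p = 0.00031), and -0.09 with library size as the only scaling (adjusted p = 0.084, edgeR).

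Among members known to bind transposable elements, ZNF91, a repressor of SVA elements, had 24.4, 23.9 and 25.3 CPM in DMSO, 11.7, 13.2, 10.5 and 15 in GTEA1 and 21.7, 19.7, 20.6 and 20 in GTEA7. The 3 groups did not overlap, with log2 fold changes of -0.95 ± 0.08 (adjusted p = 2.9e-15) and -0.26 ± 0.07 (adjusted p = 0.0056, edgeR). ZNF611, another SVA binder, had 16, 14.3 and 15.6 CPM in DMSO, 7.9 to 8.96 in GTEA1 and 11.2, 10.4, 12.8 and 11.9 in GTEA7. It too fell with both, by 0.86 (SE 0.09) and 0.4 (SE 0.08). ZNF649, which binds LINE-1 elements, went from 4.52 to 5.83 CPM in DMSO to 1.96 to 2.94 in GTEA1 (-1.03 ± 0.16), and ZNF808, which binds MER11 elements, from 16.3 to 16.8 to 8.97 to 13 (-0.56 ± 0.09). Neither passed with GTEA7, at -0.11 and -0.15. ZNF93, the LINE-1 repressor, had 3 counts in all and was not tested.

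Other members of known function followed no single direction. ZNF350 (a partner of BRCA1 that represses GADD45A) fell with GTEA1 from 3.7 to 4.62 CPM to 1.61 to 2.25 (-1.02 ± 0.17). ZNF675 (an inhibitor of TRAF6 signalling) fell from 10.3 to 11 CPM to 5.01 to 6.67 (-0.92 ± 0.11), and ZNF224 (a repressor of aldolase A) from 16.4 to 18.1 to 10.7 to 11.6 (-0.61 ± 0.08). None of these 3 passed with GTEA7.

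ZNF175, a KRAB factor studied in macrophages, fell by 0.45 (SE 0.07) with GTEA1. ZNF154, often methylated in tumours, fell by 1.11 (SE 0.32) from 1.04 to 1.3 CPM, and its span overlaps that of ZNF551 on the other strand. ZNF473, a component of histone mRNA 3' end processing, rose from 22 to 25.3 CPM to 28.9 to 31.2 (0.38 ± 0.06). ZNF296 and ZNF432, the latter known from DNA repair, passed lower with GTEA1 (-0.52 and -0.86), each with libraries that overlapped DMSO and each lost in 4 of the fits that left out 1 library. For ZNF296 these were without DMSO replicate 2 or 3 or GTEA1 replicate 3 or 4 (adjusted p up to 0.13, edgeR), and for ZNF432 without DMSO replicate 1 or 3 or GTEA1 replicate 2 or 3 (up to 0.19). ZNF331, ZNF382 and ZNF471, which are often silenced by methylation in colorectal and other tumours, had 2, 1 and 0 counts in all libraries together.

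ZNF274, which is known to bring SETDB1 to the 3' ends of zinc finger genes, had 14.1, 15.5 and 13.4 CPM in DMSO, 15, 16.8, 17.1 and 17.5 in GTEA1 and 10.7, 13.3, 11.4 and 13 in GTEA7. It passed higher with GTEA1 (0.21 ± 0.08, adjusted p = 0.025) and lower with GTEA7 (-0.25 ± 0.09, adjusted p = 0.029, edgeR), the GTEA1 libraries overlapping DMSO. Each call was lost in several alternatives: with GTEA1 without DMSO replicate 1 or 3 or GTEA1 replicate 3 or 4, and with library size as the only scaling (0.05); with GTEA7 without DMSO replicate 1 or 2 or GTEA7 replicate 1 or 3. Between the extracts it was lower in GTEA7 by 0.46 (SE 0.08, adjusted p = 1.6e-06).

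The remaining changes with GTEA7 were small. ZNF417, known with ZNF587 to bind endogenous retroviruses, had 15, 15.9 and 16.9 CPM in DMSO, 6.06 to 6.98 in GTEA1 and 13.8, 11.6, 12 and 13.3 in GTEA7. It fell by 1.28 (SE 0.1) and 0.33 (SE 0.08). ZNF587 passed higher with GTEA1 (0.17) and lower with GTEA7 (-0.18), and ZNF587B lower with GTEA1 (-0.66) and higher with GTEA7 (0.21). The GTEA7 call of ZNF587B was lost without any 1 of DMSO replicates 1, 2 and 3 or GTEA7 replicates 1, 2 and 4. That of ZNF587 was lost without DMSO replicate 3 or GTEA7 replicate 3, and its GTEA1 value was 0.01 with library size as the only scaling. These 3 share 26%, 12.4% and 22.9% of their 100-letter stretches with other genes, in the order ZNF417, ZNF587 and ZNF587B, so reads may be split among them.

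ZNF526, a member without KRAB letters, had 15.7, 16.4 and 16.6 CPM in DMSO, 20, 20.9, 22.3 and 20.4 in GTEA1 and 12.4, 13.6, 13.7 and 13.7 in GTEA7. Its groups did not overlap, and it passed in opposite directions: 0.37 ± 0.07 with GTEA1 and -0.28 ± 0.08 with GTEA7 (adjusted p = 1.1e-05 and 0.005, edgeR). ZNF264 did so too, with 63.4 to 68.4 CPM in DMSO, 72.6 to 87.3 in GTEA1 and 52.4 to 58.9 in GTEA7. ZNF225 fell with GTEA7 by 0.29, which was lost without DMSO replicate 3 (adjusted p = 0.056). ZNF585A fell by 0.4 and ZNF577 by 0.38, each called lower with GTEA7 libraries below every DMSO library. The ZNF585A call was lost without DMSO replicate 2 or GTEA7 replicate 1, that of ZNF577 without DMSO replicate 1 or GTEA7 replicate 3. ZNF584 passed higher with GTEA7 at 0.22 and ZNF561 at 0.15. The former was lost without DMSO replicate 1 or 3 or GTEA7 replicate 2, the latter without DMSO replicate 2 or 3 or GTEA7 replicate 2 or 3. With GTEA1 ZNF561 passed at 0.11, and with library size as the only scaling it was at -0.05 (adjusted p = 0.4, edgeR). Leaving out DMSO replicate 2 or 3 or GTEA1 replicate 3 or 4 also ended that GTEA1 call (adjusted p up to 0.19, edgeR), as did the replicate block, the DESeq2 Wald test, both other filters and the fit of the compared groups alone.

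Set directly against each other, the extracts differed in 77.4% of the tested members, near the 72.7% of all tested genes. The members' split between directions was not even. Relative to GTEA1, GTEA7 was higher in 88, lower in 35 and did not pass in 36 of the 159, where 72.7% of all genes passed (36.2% higher, 36.4% lower). The median log2 difference was 0.31. Differences of at least 2-fold were 29 higher and 3 lower, where 11.2% and 8.62% of all genes differed so. Among members with a mean of at least 1 CPM, the largest differences were higher levels of ZNF551 (2.11 ± 0.09), ZNF530 (2.09 ± 0.16) and ZNF480 (1.96 ± 0.09) in GTEA7, followed by ZNF112 and ZNF708; ZNF780B, under that minimum, was at 2.07 ± 0.52. Lower in GTEA7 were ZNF333 (-1.75 ± 0.06), ZNF805 (-1.49 ± 0.08), ZNF460 (-1.38 ± 0.17), ZNF565 and ZNF555. Since no doses are given, whether the extracts were compared at matched amounts is not known.

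The partners through which KRAB proteins act were described by a list of their own. Of 42 corepressor and heterochromatin genes, all tested, 25 fell and 9 rose with GTEA1 (median -0.25), and 7 fell and 3 rose with GTEA7 (median -0.05). The share of these genes that passed was 81% with GTEA1, where 71.8% of all tested genes passed, and 23.8% with GTEA7, where 22.5% did. By direction, 59.5% were lower and 21.4% higher with GTEA1, where 36.2% and 35.6% of all tested genes were. With GTEA7 these shares were 16.7% and 7.14%, against 10.4% and 12%. With library size as the only scaling, 30 fell and 5 rose with GTEA1, and 16 fell and 2 rose with GTEA7. Over all tested genes 8179 were then lower and 4828 higher with GTEA1, and 2954 and 1255 with GTEA7. TRIM28, the corepressor that binds the KRAB domain, had 349, 369 and 363 CPM in DMSO, 255, 263, 245 and 239 in GTEA1 and 357, 359, 345 and 336 in GTEA7. Every GTEA1 library was below the others (-0.53 ± 0.04, adjusted p = 1.9e-18, edgeR), and GTEA7 overlapped DMSO (-0.04 ± 0.04). SETDB1, the histone methyltransferase that TRIM28 recruits, rose with GTEA1, from 46.3 to 51 CPM to 58.7 to 63 (0.31 ± 0.05).

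CBX5, which encodes the heterochromatin protein HP1 alpha, fell with GTEA1 by 0.56 and with GTEA7 by 0.16. The largest falls were in UHRF1, which guides DNA methylation to newly copied DNA, from 85.9 to 92.5 CPM to 26.1 to 29.2 (-1.71 ± 0.05), and SUV39H1, a histone H3 lysine 9 methyltransferase, from 6 to 7.66 to 1.73 to 3.14 (-1.39 ± 0.15). DNMT1, the maintenance DNA methyltransferase, fell by 0.99 (SE 0.03). The largest rises were in DNMT3B, a de novo DNA methyltransferase, from 39.1 to 40.9 CPM to 99.7 to 120 (1.48 ± 0.05), and MORC3, a nuclear ATPase, from 48.7 to 52.1 to 82.6 to 90 (0.77 ± 0.05). DNMT3B passed lower with GTEA7 (-0.18 ± 0.06), a call lost without DMSO replicate 2 or 3 or GTEA7 replicate 3 or 4, and UHRF1, SUV39H1, DNMT1 and MORC3 did not pass there.

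**Figure D5:**
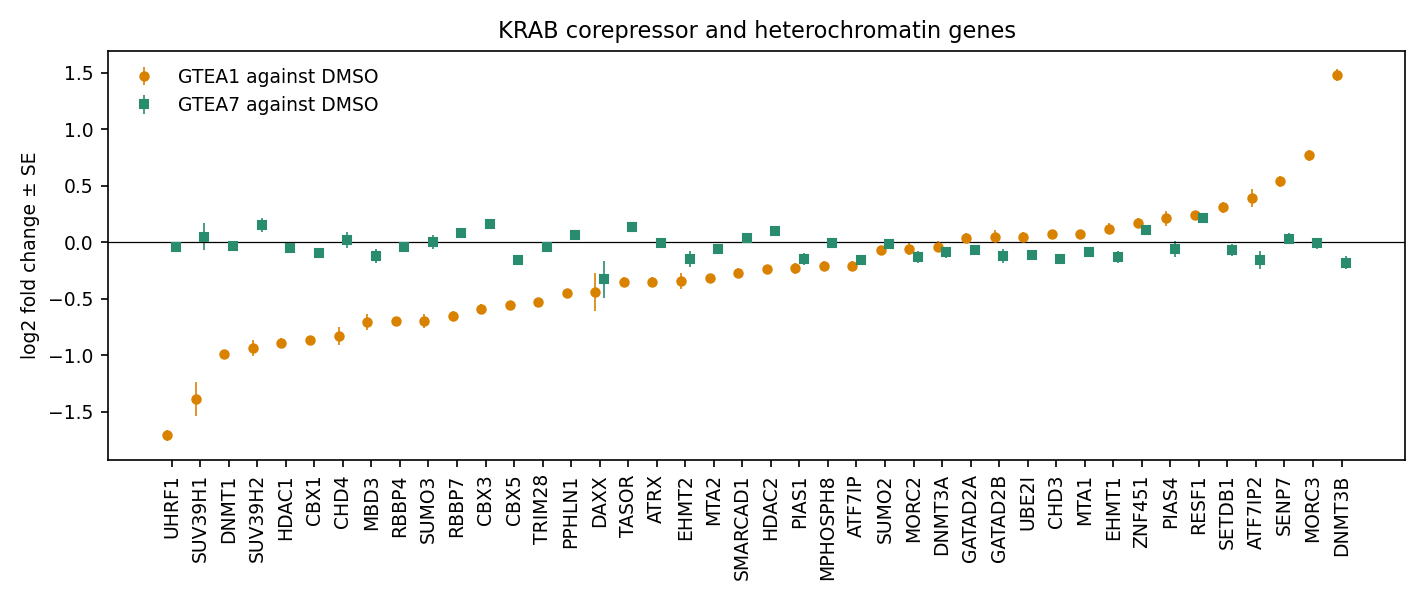
Log2 fold change with its standard error of the 42 corepressor and heterochromatin genes in GTEA1 (circles) and GTEA7 (squares) against DMSO, ordered by the GTEA1 value. UHRF1 is lowest at -1.71 and DNMT3B highest at 1.48 with GTEA1, and the GTEA7 values lie between -0.33 and 0.21.

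Some values are limited by sequence and strand. Over 10% of the 100-letter stretches of 39 members, 26 of them tested, occur in other genes. Of these 26, 18 fell and 2 rose with GTEA1 (69.2% and 7.69%), and of the other 133, 81 fell and 25 rose (60.9% and 18.8%). Over all tested genes 36.2% fell and 35.6% rose. The spans of 131 members overlap a gene on the other strand, among them ZNF333, ZNF460, ZNF480, ZNF551 and the pair ZNF146 and ZNF565. As the strand setting of the counts is not given, reads of such partners cannot be told apart. Of 80 tested members with such an overlap, 48 fell and 18 rose with GTEA1 (60% and 22.5%). Of 79 without, 51 fell and 9 rose (64.6% and 11.4%). The part of partner reads in these counts was not tested. Of the 87 members not tested, 40 had no count in any library, 31 had 1 to 10 and 16 had more, the highest total being 62 (ZNF404).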

How the data were processed

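Polyadenylated RNA of HCT116 cells was sequenced in 11 libraries, grouped by the labels' titles. The authors deposited raw read counts per gene, with no normalization; per the submitters' processing notes DESeq 1.10.1, HTSeq 0.5.4, SAMtools 0.1.18, GATK, Picard and STAR were used, with no roles stated. The sources used here give no build, annotation or strand setting, so gene positions are given only for RefSeq promoters. Members were found through GENCODE release 29, which held 58437 of the 61464 row IDs and gave order, GC content, lengths and reading frames.

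All 11 columns were used. Genes kept by filterByExpr, 17963, were fitted in 1 model of the 3 groups with edgeR 4.0.16 in R 4.3.3 (TMM factors, robust quasi-likelihood F test, Benjamini-Hochberg adjustment over all genes); CPM are scaled for library size and TMM factor. A gene passed at an adjusted p under 0.05. Each standard error was obtained by dividing the log2 fold change by the root of its F. The method was tested on simulated data with known changes. Few genes changed there, evenly in both directions, so it cannot test the scaling where most genes passed, as with GTEA1. Finger letters were sought in translated GENCODE reading frames, and KRAB letters in shifted frames as well. RefSeq proteins were not searched, as no table of them was used here.

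Named members were, for each extract against DMSO, the 8 largest rises and falls among passing members averaging 1 CPM or more whose groups did not overlap, 5 each between the extracts, the 10 highest mean CPM and 18 with known roles; exceptions are stated. The members and lists were chosen with earlier results of these data known. Alternatives were DESeq2 size factors, library size only, other filters, a replicate block, a fit of the compared groups alone, limma-voom (limma 3.58.1), the Wald test of DESeq2 1.42.0 and leaving out each library. Those for the corepressor genes named, ZNF780B, ZNF587, clusters and KRAB subsets were chosen after seeing the data. Libraries of a group differed by more than counting noise (chi-square per degree of freedom 1.391 to 4.101), so each was counted as 1 sample; this does not show that they came from separate cultures.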

Additional observations from a re-analysis of the deposited data

Results flagged for a closer look

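In 106 groups of 4 libraries, a library stood far from its group in 3 by Dixon's test, where chance alone gives about 1 in 20. ZNF526 had 12.4 CPM in GTEA7 replicate 1 against 13.6 to 13.7 in the others. ZNF317 had 50.9 CPM in GTEA7 replicate 2 against 53.2 to 53.7. ZNF331 had 0.0642 CPM in GTEA1 replicate 4, where the other 3 libraries were at 0.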

How the results depend on the processing

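When libraries were scaled by size alone, the all-gene median moved to -0.167 with GTEA1 (8179 lower, 4828 higher, against 6505 and 6390), -0.06 with GTEA7 (2954 lower, 1255 higher, against 1877 and 2159) and 0.109 between the extracts. The members' medians moved to -0.64, -0.17 and 0.42, with 119 lower and 18 higher with GTEA1, 46 and 1 with GTEA7, and 22 lower and 102 higher between the extracts. Corepressor genes were then 5 higher with GTEA1 and 16 lower with GTEA7. ZNF561 turned to -0.05 with GTEA1 (adjusted p = 0.4) and ZNF121 to 0.01 between the extracts (adjusted p = 0.74). DESeq2 size factors gave 6 corepressor genes higher with GTEA7. Without a low-count filter, which left 206 members to test, the medians were -0.43 with GTEA1 and 0.27 between the extracts. The Wald test of DESeq2 called 14 members lower and 2 higher with GTEA7. The cause of these moves was not tested, except that a change of scaling shifts all genes.

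Leaving out each library in turn gave 92 to 97 members lower and 23 to 28 higher with GTEA1 (median -0.49 to -0.45), 15 to 28 lower and 1 to 4 higher with GTEA7 (median -0.12 to -0.1), and 30 to 36 lower and 83 to 90 higher between the extracts (median 0.3 to 0.35). With the replicate block, 97 members were lower and 24 higher with GTEA1, 30 and 4 with GTEA7, and 35 and 88 between the extracts. No pairing of libraries by number was seen: deviations of same-numbered libraries correlated between -0.05 and 0.03, and in 3 of 20 cases a library correlated best with its own number. As all tested genes entered, also those with few counts and so much counting noise, this cannot exclude a pairing. Over the 62 named genes, 2525 alternative values kept their direction and side of the threshold, 109 lost a call, 25 gained one and 2 reversed. The 87 members with too few counts were not tested, and whether depth or lack of expression accounts for this was not tested.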

Other observations

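ZNF-numbered genes on other chromosomes can be set beside those of chromosome 19. Of 218 tested, 107 were lower and 57 higher with GTEA1 (49.1% and 26.1%, median log2 fold change -0.17). With GTEA7 31 were lower and 13 higher (14.2% and 5.96%, median -0.05). Over all tested genes 36.2% were lower and 35.6% higher with GTEA1, and 10.4% and 12% with GTEA7. Of these ZNF genes, the 92 with KRAB letters had 53 lower and 20 higher with GTEA1 (57.6% and 21.7%, median -0.3). The 126 without had 54 lower and 37 higher (42.9% and 29.4%, median -0.06). With GTEA7 the counts were 9 lower and 3 higher with KRAB letters (9.78% and 3.26%). Without them, 22 were lower and 10 higher (17.5% and 7.94%). The differences between these sets were not tested.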
